A study of Mus musculus with 19 samples.

Results

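The RNA-seq libraries of all 19 mice in the series were compared by file-name set, the first number (1 to 5) in the name of each mouse's deposited file. A set crosses the experiment: it holds 1 mouse of each diet-by-genotype group, except that set 3 has no fed NT-/- mouse, so sets 1, 2, 4 and 5 hold 4 mice and set 3 holds 3. Every mouse was C57BL/6, and every library was made from crypts isolated from the small intestine. The study's methods describe crypt isolation from the proximal 2/3 of the small intestine. NT+/+ mice carry the neurotensin gene and NT-/- mice lack it in the whole body. For the fasting studies, the study's methods describe the ad libitum controls of the fasted mice as littermates matched for sex and age. Mice either ate ad libitum (called fed here, AL in the titles) or went 48 h without food (fasted). The groups held 5 NT+/+ fed, 4 NT-/- fed, 5 NT+/+ fasted and 5 NT-/- fasted mice. What the sets stand for is not stated in the sources used here. Sets 1, 2 and 4 are labelled female and sets 3 and 5 male for all 18 mice with a sex label, so sex cannot be told apart from set, and 1 mouse of set 5 has no sex label. The title number differs from the file-name set for 2 fed NT-/- mice, titled 3 and 4 and found in sets 4 and 5.

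The question was which genes and cell types differ between sets once diet and genotype are removed. Each group's mean was subtracted from log2 CPM (the counts of a gene scaled by library size) to give the deviations of each mouse. Correlations and list averages use these deviations. The tests compared the 5 sets on the counts, in a model fitted jointly over groups and sets. Libraries held 9059418 to 35068669 counts (median 18541770), and 17875 genes passed the filter on low counts. *Nts*, the neurotensin gene, was at 4.98 to 8.59 CPM in the 10 mice titled NT+/+ and at 0.144 to 0.793 CPM in the 9 titled NT-/-. The fasted NT+/+ mouse of set 5 has a genotype label that says NT-/-, but its *Nts* level was 5.43 CPM, and it was grouped by its title. *Xist*, the RNA that silences an X chromosome in females, was at 1250 to 2240 CPM in sets 1, 2 and 4 and at 1.26 to 4.28 CPM in sets 3 and 5. *Kdm5d*, a Y-linked histone demethylase, was at 0.0534 to 0.227 CPM in sets 1, 2 and 4 and at 36.1 to 57.8 CPM in sets 3 and 5. The mouse without a sex label had 36.1 CPM of *Kdm5d* and 2.17 CPM of *Xist*, as the other mice of its set did. The crypt label fitted the markers: *Olfm4*, made by crypt base stem cells, was at 715 to 2410 CPM, and *Defa30*, a Paneth cell defensin, at 2520 to 8770 CPM. One library stood apart: ribosomal RNA genes took 11.5% of the counts of the fed NT+/+ mouse of set 1 and 0.233% to 2.94% elsewhere. Set 1 calls that were lost without that mouse are given below, by name or as counts.

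The small-intestinal crypt holds stem cells, dividing progenitors and the secretory Paneth, goblet, enteroendocrine and tuft cells. Tuft cells are rare chemosensory cells that release IL-25 when they sense luminal metabolites of protists or worms. IL-25 makes type 2 innate lymphoid cells secrete IL-13, which acts on the epithelium through STAT6, raises tuft and goblet cell numbers and induces genes such as *Retnlb* and the gasdermin C family. Gene use also changes along the length of the intestine, with the genes of bile acid uptake used mainly in the ileum. A crypt preparation can carry traces of fibroblasts and smooth muscle from the tissue below. In bulk libraries, fewer cells of a type and less RNA per cell cannot be told apart.

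Of the 17875 genes, 2732 differed between the 5 sets at an adjusted p under 0.05 (15.3%, edgeR quasi-likelihood F test on 4 degrees of freedom, Benjamini-Hochberg over all genes). Set 1 stood furthest from the rest. Against the mean of the other sets, 3413 genes (19.1%) differed in set 1, of which 1814 were higher (10.1%) and 1599 lower (8.95%). Set 3 followed with 471 genes (2.63%), of which 204 were higher (1.14%) and 267 lower (1.49%). In set 2, 194 genes (1.09%) differed, 82 higher (0.459%) and 112 lower (0.627%). Only 27 genes (0.151%) differed in set 5 and 6 (0.0336%) in set 4. The set 1 count was 1070 without its fasted NT-/- mouse, 1413 without its fed NT+/+ mouse and 1628 without its fasted NT+/+ mouse. When set 1 was left out, 53 genes (0.296%) differed among the remaining sets. The median absolute log2 fold change of the genes called in set 1 was 0.43. Under upper-quartile scaling, which moved the set 1 median of all genes from 0.01 to -0.05, higher genes made up 33.7% of the set 1 calls against 53.1% under the main scaling, so the balance between higher and lower in set 1 depends on the scaling.

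The sets accounted for a median of 47.2% of a gene's sum of squares within groups (quartiles 32.7% and 60.8%), where their 4 of 15 degrees of freedom would take 26.7%. Across all tested genes, the deviations of mice in the same set correlated at a mean of 0.227 over 27 pairs (lowest 0.067, highest 0.499). For the 108 pairs that shared neither set nor group, the mean was -0.056. Within set 1 the 6 pairs ranged from 0.266 to 0.499 with a mean of 0.399. The means were 0.154 to 0.201 in sets 2 to 5, and the highest pairs of sets 3, 4 and 5 (0.31, 0.346 and 0.319) overlapped the range of set 1. Autosomal genes outside every gene list used here gave a mean of 0.19 within sets and -0.047 between them. For 17 of the 19 mice, the best-correlated mouse of another group came from the same set. These correlations are across genes, share the group means and are given as a description.

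**Figure D1:**
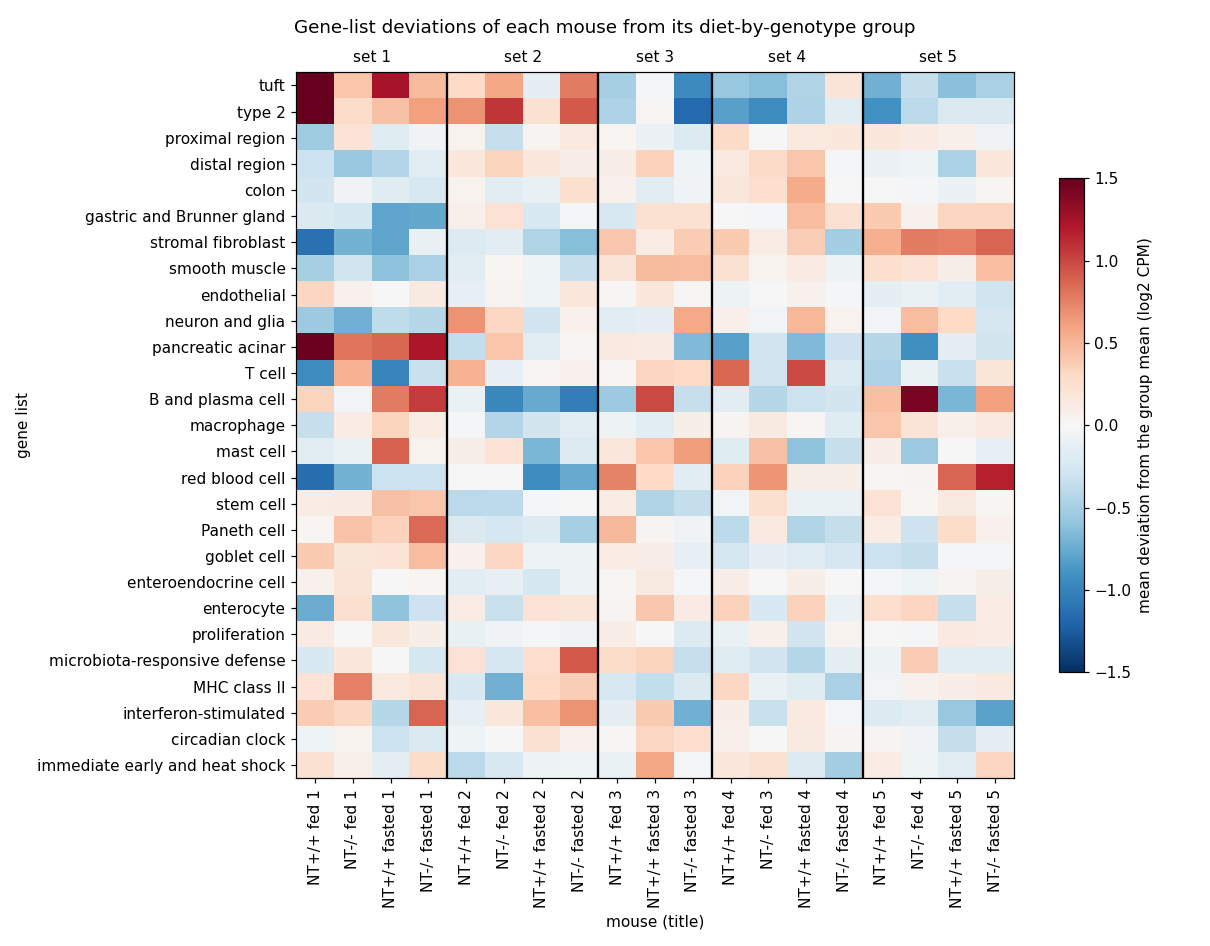
Mean deviation from the diet-by-genotype group mean (log2 CPM, colour) for 27 gene lists (rows) in each of the 19 mice (columns, ordered by file-name set, with the set number above). The tuft row runs from 0.41 to 1.5 in the 4 mice of set 1 and from -0.72 to -0.36 in the 4 mice of set 5, and the stromal fibroblast row has the opposite signs in these sets.

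Of the 28 gene lists, the tuft cell list had the most members called in set 1. It holds 24 genes, of which *Il25* and *Gng13* had too few counts to be tested. Of the 22 tested members, 21 were higher in set 1, where 10.1% of all genes were, and none was lower. The median log2 fold change was 1.35, beside a median of 0.01 over all genes. Averaged over the list, the deviations in set 1 were 1.5 in the fed NT+/+, 0.41 in the fed NT-/-, 1.24 in the fasted NT+/+ and 0.47 in the fasted NT-/- mouse. The 3 lowest values in the study, -0.96, -0.72 and -0.64, came from sets 3, 5 and 4.

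*Trpm5*, the cation channel of the tuft cell's taste-like transduction (chr7:143069153-143094642 in GRCm38), gave 118, 74.8, 90.4 and 60.2 CPM in the fed NT+/+, fed NT-/-, fasted NT+/+ and fasted NT-/- mice of set 1. In the same order, set 2 had 41.6, 75.7, 28.5 and 74.7 CPM. The 11 mice of sets 3, 4 and 5 lay between 15.4 and 42.5 CPM. The NT-/- mice of set 2 thus lay within the range of set 1, and its NT+/+ mice within that of sets 3 to 5. The set 1 difference was 1.46 ± 0.23 on the log2 scale (SE, adjusted p = 0.00144), and that of set 2, at 0.58 ± 0.25, did not pass (adjusted p = 0.223). *Dclk1*, a kinase that marks tuft cells, was at 131, 82.2, 110 and 72.5 CPM in set 1 and at 57.3, 91.7, 38.3 and 88.8 CPM in set 2, in the same order of groups. It lay between 25.7 and 60.1 CPM in sets 3 to 5, and was 1.22 ± 0.22 higher in set 1 (adjusted p = 0.00255).

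*Plcb2*, the phospholipase that acts upstream of Trpm5, had the smallest p of the list in the 5-set test (adjusted p = 0.00424). It ranged from 15.1 to 38.5 CPM in set 1, from 8.46 to 23.2 CPM in set 2 and from 5.32 to 11.7 CPM in sets 3 to 5, so set 1 did not overlap sets 3 to 5. *Pou2f3*, the transcription factor that tuft cells need to form, was at 10.8 to 23.9 CPM in set 1, at 4.64 to 14.7 CPM in set 2 and at 4.05 to 8.79 CPM in sets 3 to 5. *Sh2d7*, a signalling adaptor of tuft cells, and *Alox5*, the enzyme that starts leukotriene synthesis, rose by 1.54 ± 0.25 and 1.39 ± 0.24 in set 1. The smallest rise among the called members was that of *Il17rb*, which encodes a subunit of the IL-25 receptor, at 0.4 ± 0.13 (adjusted p = 0.0479), a call lost without the fed NT+/+ mouse of set 1 (0.31, adjusted p = 0.207). *Ltc4s*, a leukotriene C4 synthase, was the member that did not pass in set 1, at a log2 fold change of 0.53 (adjusted p = 0.0888).

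No tuft gene passed in sets 2 to 5 against their means of the other sets, with list medians of 0.5 in set 2, -0.6 in set 3, -0.5 in set 4 and -0.71 in set 5. Set 1 is part of each of these means, so its high tuft values lower these medians. In set 5, 18 of the 22 members were at an unadjusted p under 0.05, where 16.1% of all genes were. Set 5 against set 3, a contrast without set 1, gave a list median of -0.09, with 0 members at that level. Within the 9 fed mice, the list's median in set 1 was 1.48, and no member passed where 0.0235% of all genes were called higher. Within the 10 fasted mice, the median was 1.19 and 5 of 21 members passed, where 2.39% of all genes did. Without the fed NT+/+ mouse of set 1, which had the highest tuft values and the ribosomal excess, 16 of the 21 calls remained in set 1, with a list median of 1.05, where 4.09% of all genes were called higher.

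**Figure D2:**
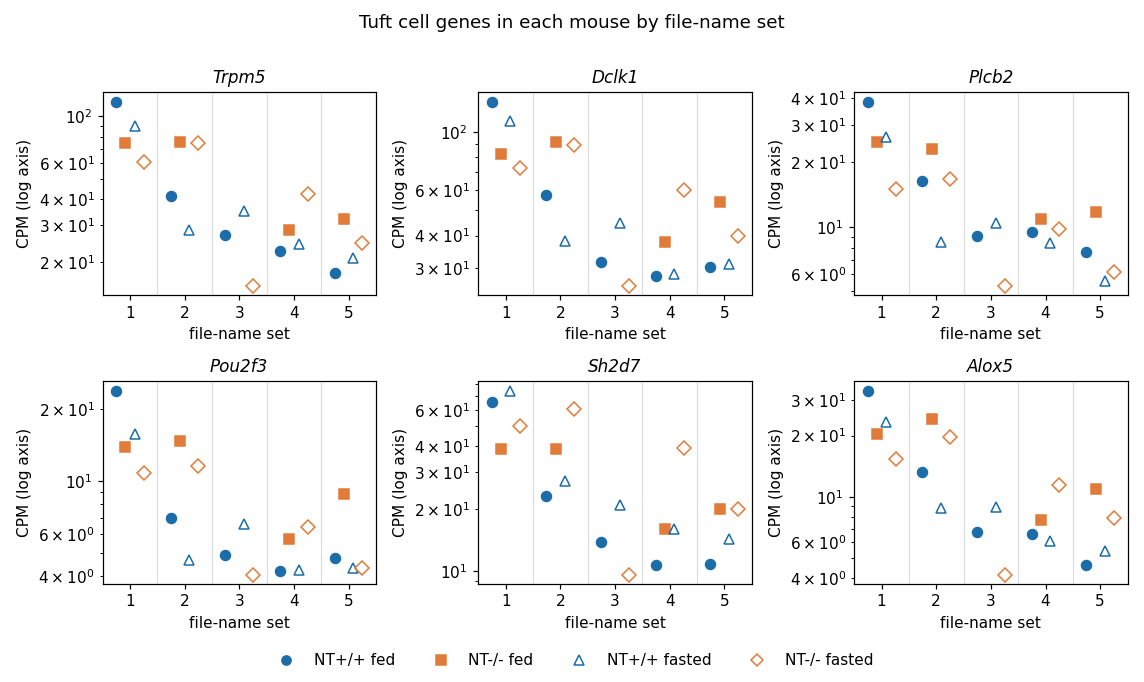
CPM (log axis) of 6 tuft cell genes in each of the 19 mice by file-name set, with 1 symbol per mouse and filled symbols for fed mice. For *Plcb2*, the 4 mice of set 1 lie between 15.1 and 38.5 CPM, above all 11 mice of sets 3 to 5 (5.32 to 11.7 CPM), and of the mice of set 2, 3 lie inside the range of set 1 and 1, at 8.46 CPM, inside that of sets 3 to 5.

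The promoters of the genes that moved together are given for reference, as RefSeq windows of 300 bases in GRCm38.p6, from 250 bases before the start to 50 after it. The table held an entry for 19 of the 24 tuft genes and 12 of the 17 type 2 genes. *Trpm5* and *Dclk1* stand for the tuft list and *Gsdmc3* and *Pla2g4c* for the genes higher in sets 1 and 2 described below. The first listed start is shown where there are several. Capitals mark a match, on either strand, to the STAT6-type spaced palindrome TTCNNNNGAA or to the octamer ATGCAAAT that POU factors bind.
Trpm5 (chr7:143094593-143094892, minus strand): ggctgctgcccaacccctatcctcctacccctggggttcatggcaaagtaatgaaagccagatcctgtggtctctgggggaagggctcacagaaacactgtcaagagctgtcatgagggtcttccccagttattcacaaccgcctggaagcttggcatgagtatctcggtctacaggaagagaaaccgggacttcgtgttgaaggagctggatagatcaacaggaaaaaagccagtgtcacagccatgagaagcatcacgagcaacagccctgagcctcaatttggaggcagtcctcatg
Dclk1 (chr3:55242114-55242413, plus strand): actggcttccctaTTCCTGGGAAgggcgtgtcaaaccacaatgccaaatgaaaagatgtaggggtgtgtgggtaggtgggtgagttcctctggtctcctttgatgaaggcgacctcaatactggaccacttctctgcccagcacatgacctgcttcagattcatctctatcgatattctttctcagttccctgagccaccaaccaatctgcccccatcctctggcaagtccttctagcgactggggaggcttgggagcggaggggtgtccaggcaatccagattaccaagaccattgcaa
Gsdmc3 (chr15:63878509-63878808, minus strand): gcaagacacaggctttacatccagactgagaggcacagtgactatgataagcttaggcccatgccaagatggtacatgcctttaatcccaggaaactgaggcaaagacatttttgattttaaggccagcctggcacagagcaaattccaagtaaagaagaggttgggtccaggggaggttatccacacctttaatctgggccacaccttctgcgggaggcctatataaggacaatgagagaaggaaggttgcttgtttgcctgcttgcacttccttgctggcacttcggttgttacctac
Pla2g4c (chr7:13325417-13325716, plus strand): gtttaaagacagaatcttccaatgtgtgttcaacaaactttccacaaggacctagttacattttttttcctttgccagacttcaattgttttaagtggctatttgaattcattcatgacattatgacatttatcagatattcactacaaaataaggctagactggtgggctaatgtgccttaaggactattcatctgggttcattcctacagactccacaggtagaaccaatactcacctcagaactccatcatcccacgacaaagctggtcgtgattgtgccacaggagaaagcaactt
Of these 4 windows, that of *Dclk1* held 1 match, to the palindrome, and the other 3 held none. Across all 32851 windows, 6.95% held the palindrome and 1.74% the octamer. Of the 21 windows of tuft genes, 4 held the palindrome and 2 the octamer, and of the 14 windows of type 2 genes, 6 held the palindrome and 2 the octamer. The palindrome windows of the type 2 list belong to *Sprr2a1*, *Sprr2a2*, *Sprr2a3*, *Il4*, *Retnla* and *Il33*, and the octamer windows to *Il4ra* and *Il33*. The windows of *Sprr2a1* and *Sprr2a2* have the same sequence, and that of *Sprr2a3* is a shifted copy with the same match. The palindrome count of the type 2 list thus holds 1 site repeated in these paralogs and cannot be set against the share of all windows. No gene with a match in that list was called in set 1 or 2, and *Il4* and *Retnla* were not tested. A match is a run of letters and was not tested for binding.

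Genes of the type 2 response were higher in sets 1 and 2. The list holds 17 genes, and 6 of them (*Il4*, *Il5*, *Il13*, *Ccl24*, *Retnla* and *Gsdmc*) had too few counts to be tested, with 4 to 81 counts in all 19 libraries together. Of the 11 tested members, 5 were higher in set 1 (median log2 fold change 1.05) and 3 in set 2 (median 0.94). None was lower in either, and none passed in set 3, 4 or 5. Of all genes, 10.1% were called higher in set 1 and 0.459% in set 2. The *Gsdmc* paralogs share sequence: 28.6%, 28.4% and 20.2% of the 100-base stretches in the transcripts of *Gsdmc2*, *Gsdmc3* and *Gsdmc4* occur in another gene of the family, so the split of reads among them is uncertain.

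*Retnlb*, a resistin-like protein secreted by goblet cells (chr16:48816856-48818892 in GRCm38), had the smallest p of the list in the 5-set test (adjusted p = 0.000579). It was at 18, 4.99, 1.22 and 1.01 CPM in the fed NT+/+, fed NT-/-, fasted NT+/+ and fasted NT-/- mice of set 1. Set 2 had 4.67, 8.55, 0.341 and 0.908 CPM in the same order. The fed mice of sets 3 to 5 had 0.0967 to 0.426 CPM and the fasted ones 0 to 0.171 CPM. Within either diet, then, every mouse of sets 1 and 2 was above every mouse of sets 3 to 5. *Retnlb* was 3.99 ± 0.42 higher on the log2 scale in set 1 (adjusted p = 0.000131) and 3.02 ± 0.46 higher in set 2 (adjusted p = 0.0132). In sets 3 to 5 and in the fasted mice of set 2 it rested on few counts per library. The size of these folds is therefore loose. The fasted NT+/+ and fasted NT-/- mice of set 2 had 5 and 8 counts, and the fasted mice of sets 3 to 5 had 0 to 3.

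*Gsdmc4*, a pore-forming gasdermin, was lower in fasted than in fed mice of every set, and under either diet sets 1 and 2 lay above sets 3 to 5. The fed NT+/+ and fed NT-/- mice had 2150 and 895 CPM in set 1, 737 and 1980 CPM in set 2, 176 and 323 CPM in set 4 and 127 and 372 CPM in set 5, and the single fed mouse of set 3 had 292 CPM. Fasted NT+/+ and NT-/- mice had 24.9 and 15.1 CPM in set 1, 9.35 and 9.08 CPM in set 2, and 0.578 to 5.60 CPM in sets 3 to 5. The order of sets 1 and 2 differed between groups, with set 2 above set 1 in fed NT-/- mice and set 1 above set 2 in the other groups. The set 1 difference was 2.19 ± 0.30 (adjusted p = 0.000629) and that of set 2 was 1.34 ± 0.32, which missed the threshold (adjusted p = 0.0549). *Gsdmc2* and *Gsdmc3* passed in both sets, at 1.93 ± 0.32 and 2.02 ± 0.34 in set 1 and 1.54 ± 0.34 and 1.61 ± 0.35 in set 2. Without the fed NT+/+ mouse of set 1, *Gsdmc3* stood at 0.96 in set 1 (adjusted p = 0.0961).

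*Pla2g4c*, a cytosolic phospholipase A2 outside the list, was named for its fold change in set 2. Its fed NT+/+ and fed NT-/- values were 1610 and 200 CPM in set 1, 472 and 1840 CPM in set 2, 14.3 and 57.6 CPM in set 4 and 6.19 and 52.7 CPM in set 5, with 36.6 CPM in the fed mouse of set 3. All 10 fasted mice were at or below 1.62 CPM. The difference in the fed mice was thus carried by 4 mice, whose values spread from 200 to 1840 CPM. It was 3.72 ± 0.71 higher in set 1 (adjusted p = 0.00375) and 3.29 ± 0.65 higher in set 2 (adjusted p = 0.0355). Without the fed NT+/+ mouse of set 1, its set 1 difference was 0.68 ± 0.56 and did not pass (adjusted p = 0.456). The set 2 call was lost without any of several mice, with 2.57 (adjusted p = 0.161) when the fed NT-/- mouse of set 2 was left out. *Mptx1*, a mucosal pentraxin, had 54.1, 26.8, 7.65 and 11.9 CPM in set 1 and 6.49, 31.4, 3.41 and 6.35 CPM in set 2, against 0.224 to 7.80 CPM in sets 3 to 5. *Ang4*, an antimicrobial ribonuclease of Paneth and goblet cells, was at 3090 to 3920 CPM in set 1, at 1610 to 3090 CPM in set 2 and at 834 to 1970 CPM in sets 3 to 5. It rose by 1.22 ± 0.16 in set 1 (adjusted p = 0.000471) and stood at 0.18 in set 2 (adjusted p = 0.591), against a mean that includes set 1. In set 2, *Ang4* was at 1860, 3090 and 1740 CPM in the fed NT+/+, fed NT-/- and fasted NT-/- mice. Sets 3 to 5 reached 1730, 1970 and 1390 CPM in these groups. The fasted NT+/+ mouse of set 2, at 1610 CPM, lay below that of set 3, at 1710 CPM.

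Other members did not pass in either set. The receptor chains *Il4ra* and *Il13ra1* and the alarmin *Il33* had log2 fold changes between -0.22 and 0.19 in set 1. *Sprr2a1*, *Sprr2a2* and *Sprr2a3*, small proline-rich proteins, had -0.12, 0.26 and 1.05 in set 1 and 0.77, 0.94 and 1.58 in set 2. Of their 100-base stretches, 92.5%, 92.8% and 36.2% occur in another gene of the family, so these values are uncertain as well. Without the fed NT+/+ mouse of set 1, 4 of the 11 members were called higher in set 1 and the list's median was 0.14. The 3 calls of set 2 were lost without its fed NT-/- mouse, in a fit where 0.0605% of all genes were called higher in set 2.

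**Figure D3:**
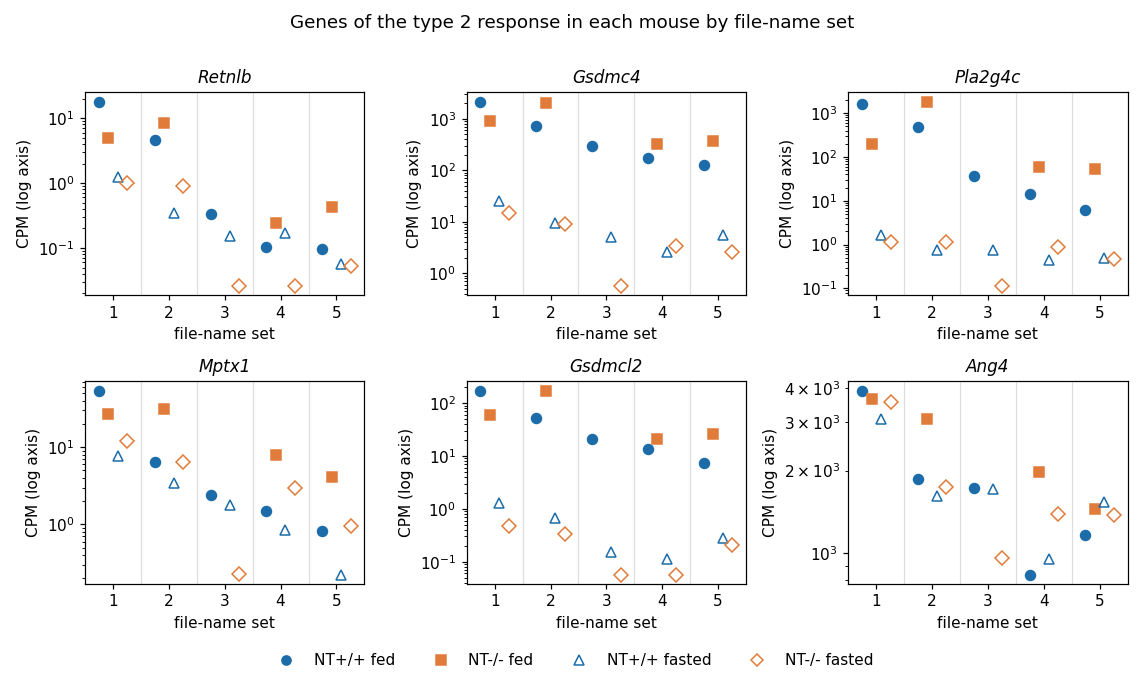
CPM (log axis) of 5 genes higher in sets 1 and 2 or in set 1 and of *Ang4* in each of the 19 mice by file-name set, with values of 0 drawn at the bottom edge. The fed mice of sets 1 and 2 (filled) lie between 200 and 1840 CPM for *Pla2g4c*, above the 5 fed mice of sets 3 to 5 (6.19 to 57.6 CPM), and all fasted mice (open) lie at or below 1.62 CPM.

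Of the genes that mark position along the intestine, few passed in set 1, and the clearest difference was that of an ileal gene. Per the study's methods, the crypts did not come from the distal end of the small intestine. Of 9 tested proximal genes, 2 were higher and 1 lower in set 1, with a list median of -0.35. Of all genes, 10.1% were called higher and 8.95% lower in set 1. *Gata4*, the transcription factor of the proximal small intestine, was at 142 to 171 CPM in set 1 and at 108 to 152 CPM elsewhere, a difference of 0.29 ± 0.06 (adjusted p = 0.00575). *Onecut2*, a duodenal transcription factor, was lower by 0.57 on the log2 scale (adjusted p = 0.0194), the opposite direction within the same list. Without the fed NT+/+ mouse of set 1, 1 of the 9 proximal genes was called, and neither *Onecut2* (-0.41, adjusted p = 0.11) nor the colon gene *Aqp8* passed. Of 10 tested distal genes, 1 passed, a count near the 8.95% of all genes called lower. This was *Fabp6*, the ileal bile acid binding protein. It had 1.39, 0.501, 0.869 and 0.961 CPM in the fed NT+/+, fed NT-/-, fasted NT+/+ and fasted NT-/- mice of set 1, below all 15 other mice, which had 2.16 to 16.1 CPM. Its log2 fold change in set 1 was -3 ± 0.52 (adjusted p = 0.00211). *Fgf15*, the ileal hormone that represses bile acid synthesis, reached 8.32 and 10.7 CPM in the fed mice of set 2 against 0 to 3.40 CPM in the other fed mice, and did not differ between sets beyond the spread (adjusted p = 0.0685). *Slc10a2*, the ileal bile acid transporter, had 0.295 to 2.90 CPM in set 1 and 0.92 to 7.03 CPM elsewhere (adjusted p = 0.155). Of 6 colon markers, *Car1*, *Hoxb13* and *Hoxd13* had no count in any library, and of the 3 tested *Aqp8*, a water channel, was lower in set 1 (-1.23, adjusted p = 0.0325).

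*Muc6*, a mucin of gastric and Brunner's glands, was at 8.54 to 11.4 CPM in set 1 and at 13.3 to 25 CPM in the 15 other mice, so the groups did not overlap. It was lower by 0.96 ± 0.12 on the log2 scale (adjusted p = 0.000423). The defining gastric markers *Gkn1* and *Gkn2* had no count in any library. *Clps*, which encodes the lipase cofactor colipase, was at 420, 368, 218 and 261 CPM in set 1 in the order used above and at 71.1 to 281 CPM elsewhere. Set 1 lay above every mouse of the same diet. It was higher by 1.36 ± 0.17 (adjusted p = 0.000358). The other 7 acinar genes were at or near 0, with 0 counts of *Pnlip* and 3 of *Cpa1* over all libraries.

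Stromal transcripts were scarce in every mouse, and collagen genes were lower in set 1. Of 14 fibroblast genes, 8 could be tested, and 5 of these, all collagens, were lower in set 1 and none higher (median -1.5). Of all genes, 8.95% were called lower in set 1. *Col3a1*, fibrillar collagen III, had 0.144, 0.413, 0.174 and 0.694 CPM in set 1 in the order used above, values that rest on few counts. Set 2 had 0.113 to 1.30 CPM, sets 3 and 4 had 0.592 to 1.78 CPM, and set 5 had 1.59 to 3.09 CPM. Set 5 lay above the whole of sets 1 and 2. The set 1 difference was -1.86 ± 0.42 (adjusted p = 0.00829). In fed mice alone it was -2.6 ± 0.37 (adjusted p = 0.0868) and in fasted mice alone -0.84 ± 0.55 (adjusted p = 0.356). The list's median was -2.08 over 6 genes in fed mice and -0.03 over 3 genes in fasted mice, with none called in either, where 0.0176% and 2.76% of all genes were called lower. *Col1a1*, collagen I, was at 0.048 to 0.265 CPM in set 1 and at 0.0986 to 0.925 CPM elsewhere. The mesenchymal gene *Vim*, by contrast, lay between 5.13 and 8.57 CPM in all mice (0.07 in set 1, adjusted p = 0.722), and *Sparc*, *Dpt* and *Pdgfra* had 88, 26 and 39 counts over all libraries.

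Smooth muscle genes gave 3 of 6 tested members lower in set 1 (median -0.53), where 8.95% of all genes were. *Myh11*, smooth muscle myosin, was at 0.232 to 0.973 CPM in set 1, at 0.89 to 1.13 CPM in set 2 and at 0.986 to 2.77 CPM in sets 3 to 5, a set 1 difference of -1.76 ± 0.29 (adjusted p = 0.00155). *Acta2*, smooth muscle actin, was lower in set 1 (-1.15 ± 0.28) and higher in set 3 (1.14 ± 0.27, adjusted p = 0.0412). *Mylk*, a myosin kinase that epithelium makes as well, lay between 152 and 229 CPM in all mice and did not pass. Without the fed NT+/+ mouse of set 1, 2 of 8 fibroblast and 2 of 5 smooth muscle genes were called lower in set 1, where 3.87% of all genes were, and without its fasted NT-/- mouse 3 of the 8 fibroblast genes were. Of 5 tested red blood cell genes, *Hba-a1* and *Alas2* were lower in set 1, *Hba-a1* not without the fed NT+/+ mouse of set 1 (adjusted p = 0.0745), and none of the 10 T cell genes passed in any set.

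**Figure D4:**
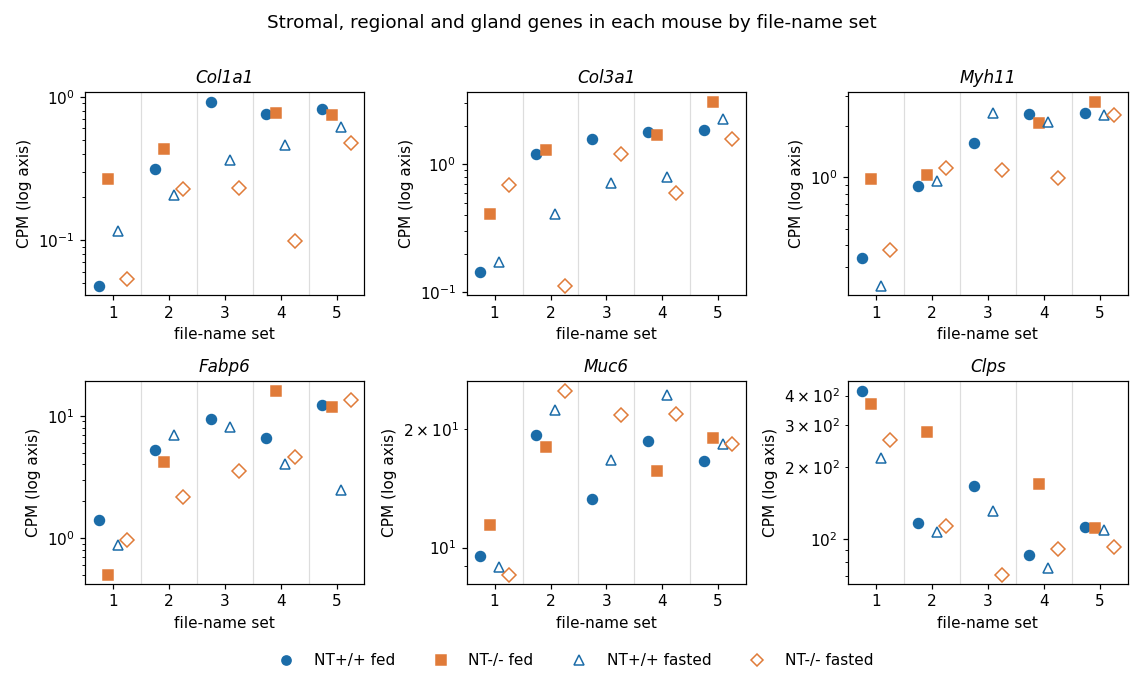
CPM (log axis) of the collagens *Col1a1* and *Col3a1*, the smooth muscle gene *Myh11*, the ileal gene *Fabp6*, the gland mucin *Muc6* and the colipase gene *Clps* in each of the 19 mice by file-name set. For *Fabp6* and *Muc6* the 4 mice of set 1 lie below the 15 others, at 0.501 to 1.39 CPM and 8.54 to 11.4 CPM.

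Secretory and stem cell lists also held genes that were higher in set 1, where 10.1% of all genes were. Of 10 Paneth cell genes, 7 were higher in set 1 and none lower (median 0.56). *Defa30* was at 5630, 6280, 6130 and 8770 CPM in set 1 and at 2520 to 4440 CPM in the 15 other mice. The groups did not overlap, and the difference was 0.93 ± 0.12 (adjusted p = 0.000477). Without the fasted NT-/- mouse of set 1, 3 of the 10 Paneth and 1 of the 9 stem cell genes were called higher there, where 2.97% of all genes were. Without its fed NT+/+ mouse, 6 of the 10 Paneth, 3 of the 8 goblet and 3 of the 9 stem cell genes were, where 4.09% of all genes were. Of 8 goblet cell genes, 4 were higher. *Spink4*, a trypsin inhibitor of goblet cells, was at 1120, 871, 499 and 426 CPM in set 1, above the other fed mice (316 to 728 CPM) and the other fasted mice (169 to 338 CPM) of the same diet. *Muc2*, the main gel-forming mucin, stood at -0.05 in set 1 and rose by 0.48 in set 2 (adjusted p = 0.0385).

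Of 9 stem cell genes, 4 were higher in set 1 and 2 lower in set 3, where 10.1% and 1.49% of all genes were. *Sox9*, a transcription factor of the crypt base, showed both: it was higher in set 1 by 0.68 ± 0.11 (adjusted p = 0.00184) and lower in set 3 by 0.84 ± 0.15 (adjusted p = 0.0154). It had 107, 95.2, 149 and 132 CPM in set 1 and 60.2, 49.3 and 47.1 CPM in the fed NT+/+, fasted NT+/+ and fasted NT-/- mice of set 3. *Lgr5*, the receptor that marks stem cells, had 22.7 to 43.5 CPM in set 1 and 19.2 to 39.1 CPM elsewhere and did not pass (adjusted p = 0.23), and neither did any of 8 proliferation genes in set 1. Enterocyte genes were below 0 in set 1 for all 10 members (median -0.43), and 1, *Apob*, passed, where 8.95% of all genes were called lower. Of 10 interferon-stimulated genes, 4 were higher in set 1, where 10.1% of all genes were. Without its fed NT+/+ mouse none of the 4 was called, nor was *Apob*, and the same held without its fasted NT-/- mouse. *Irgm1*, an interferon-induced GTPase outside that list, was at 87.2, 57.9, 40.1 and 48.7 CPM there against 33.8 to 41.2 CPM in the other fed mice and 24.6 to 33.2 CPM in the other fasted mice, so it did not overlap them within either diet. It passed without the fed NT+/+ mouse of set 1 as well (0.67 ± 0.07, adjusted p = 0.000607).

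The genes lower in set 1 held many that do not code for protein. Of the 1599, 434 (27.1%) are of the annotation class TEC (predicted from expressed sequence and awaiting experiment), a class that makes up 6.46% of all tested genes. A further 157 are antisense and 62 are sense-intronic genes, and 726 (45.4%) code for protein. Of the 1814 genes higher in set 1, 94.8% code for protein. Of the 434 TEC genes, 402 overlap a protein-coding gene, and 973 of all 1155 tested TEC genes do, so reads from introns of the host gene and from the TEC gene cannot be told apart here. *C130089K02Rik*, a TEC gene, had 5.23, 4.63, 3.53 and 4.75 CPM in set 1, below all 15 others (8.49 to 12.3 CPM), and differed by -1.22 ± 0.11 (adjusted p = 7.79e-05). *Lrrc4*, a synaptic adhesion protein, was at 1.85 to 4.13 CPM in set 1 and at 9.43 to 10.5 CPM in set 3, with sets 2 and 4 (3 to 8.39 and 3.55 to 8.58 CPM) overlapping set 1 and set 5 (5.54 to 9.16 CPM) above it.

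The share of a library's counts in TEC genes was 0.215% to 0.280% in set 1 and 0.271% to 0.443% in the other sets. The fasted NT-/- mouse of set 5, at 0.271%, was the mouse outside set 1 that reached its range. Tuft, Paneth and collagen differences thus came with a lower share of TEC counts in the same mice, and its part in them was not tested. Restricted to protein-coding autosomal genes, 1503 genes differed between sets and 1804 in set 1, and 19 of the 21 tuft genes in that fit were called higher in set 1, all 19 among those called on all genes, where 7.29% of all genes in the fit were.

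**Figure D5:**
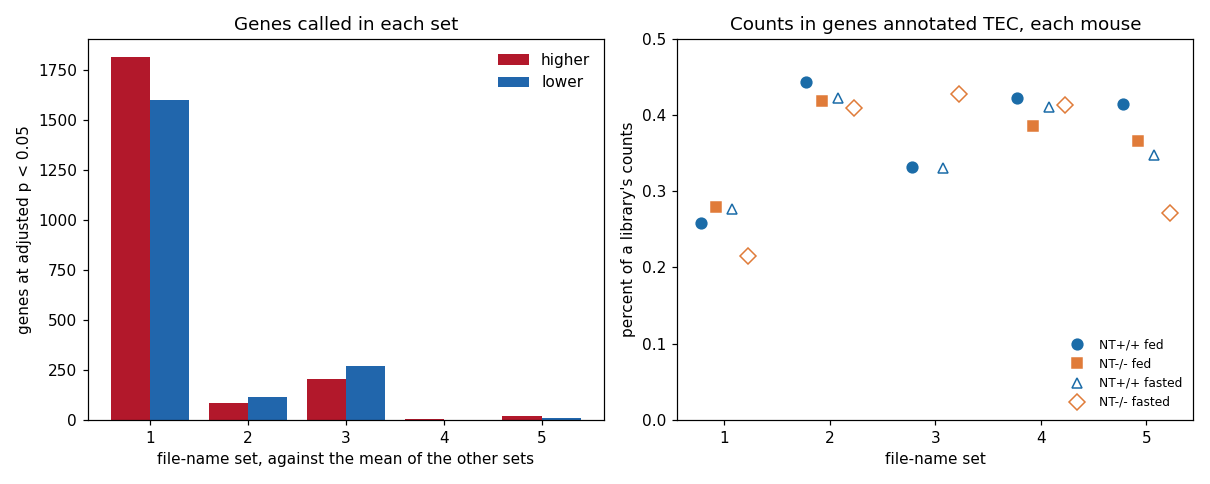
Left, numbers of genes higher or lower in each file-name set than in the mean of the other sets (edgeR, adjusted p under 0.05), from 3413 in set 1 to 6 in set 4. Right, percent of each mouse's counts in genes annotated TEC, 1 symbol per mouse, which spans 0.215% to 0.280% in set 1.

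Sets 2 and 3 had profiles of their own. In set 2, *Srm*, spermidine synthase, had 9.47, 10.8, 6.55 and 7.49 CPM in the order of groups used above, against 13.2 to 20.1 CPM in the other fed mice and 7.60 to 16.9 CPM in the other fasted mice. It was lower by 0.71 ± 0.13 (adjusted p = 0.0311), and *Hpdl*, a dioxygenase-like enzyme, by 0.82 ± 0.15 (adjusted p = 0.0311). The set 2 count was unsteady: it fell to 7 genes without the fasted NT+/+ mouse of set 2, where neither *Srm* (adjusted p = 0.19) nor *Hpdl* (adjusted p = 0.168) passed.

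In set 3, several called genes stood furthest apart in its fasted mice. *Per1*, a clock repressor that glucocorticoids induce, was at 68.7 and 48.7 CPM in the fasted NT+/+ and fasted NT-/- mice of set 3, against 19.1 to 37.7 CPM in the other fasted mice, while the fed mouse of set 3, at 15.5 CPM, lay beside the highest other fed mouse at 15.4 CPM. It was 1.01 ± 0.19 higher in set 3 (adjusted p = 0.0183). *Myc*, the growth regulator, had 38.8 and 30.4 CPM in the fasted mice of set 3 against 83.7 to 190 CPM in the other fasted mice, and 50.1 CPM in the fed one, within the 45.1 to 78.5 CPM of the other fed mice. It was lower by 1.14 ± 0.23 (adjusted p = 0.0242). *Bnip1*, a SNARE protein, was at 21.7, 29.2 and 33.4 CPM, above the mice of the same diet elsewhere (15.1 to 19.9 CPM fed, 15.1 to 24.6 CPM fasted). Of 344 protein-coding *Zfp* zinc finger genes, a group chosen after these results were seen, 29 were lower in set 3 (8.43% beside 1.49% of all genes) and none was higher. The set 3 count fell from 471 genes to 8 without its fasted NT+/+ mouse and to 18 without its fasted NT-/- mouse, and the calls of *Per1*, *Myc* and *Sox9* in set 3 were each lost when either mouse was left out, and that of *Bnip1* without the fasted NT-/- mouse.

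Of the 6 genes of set 4, 5 were the sex-linked *Xist*, *Kdm5d*, *Kdm6a*, *Gm26992* and *Gm27927*, and the sixth was the TEC gene *Gm37033*. In set 5, 18 of the 27 were autosomal. *Rab10os*, an antisense RNA, had 11.6, 14.9, 11.3 and 13.3 CPM in set 5 and 16.3 to 25.1 CPM in the other mice, so that the groups did not overlap (-0.70 ± 0.09, adjusted p = 0.00419). *Tgfbr3l* had 3.48 to 4.48 CPM in set 5 and 4.46 to 11.9 CPM elsewhere, with ranges that touch (-0.79 ± 0.12, adjusted p = 0.0132), a call lost without either fasted mouse of set 5 (adjusted p = 0.12 and 0.118).

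Sets labelled male and female differed in 273 genes (1.53%), of which 252 were autosomal, 15 X-linked and 5 Y-linked. Among them were 8 of the 22 tuft genes and 4 of the 11 type 2 genes, all lower in the male sets, and 4 of the 8 fibroblast genes, all higher. When set 1 was left out, 145 genes (0.809%) differed between male and female sets, and none of the tuft, type 2 or fibroblast genes did. The 3 sets labelled female, of which set 1 is one, differed among themselves in 2551 genes (14.3%), including 18 of 22 tuft genes. The 2 sets labelled male differed in 86 genes (0.481%, and in none without the fasted NT+/+ mouse of set 3), none of them a tuft, type 2 or stromal gene. *Tgfbr3l* was lower in set 5 than in set 3 by 1.20 ± 0.16 on the log2 scale (adjusted p = 0.0175), and *Bnip1* by 0.83 ± 0.12 (adjusted p = 0.0175).

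No gene passed in the tests of whether set differences depend on diet or on genotype (0% in either, edgeR F test on the interaction terms). At an unadjusted p under 0.05, 1185 genes (6.63%) did so for diet and 1616 (9.04%) for genotype. Of the tuft list, 19 of 22 members were at that level for genotype and 0 for diet, as were 9 of 10 T cell genes for genotype and 7 of 7 MHC class II genes for diet. The limma test called none in either, and DESeq2 called 80 and 150. The smallest adjusted p for diet was that of *Myc* (0.0855), followed by *Rep15* and *Txnip* (0.263 each). *Txnip*, an arrestin that restrains glucose uptake, was at 506 and 648 CPM in the fasted mice of set 3 against 247 to 385 CPM in the other fasted mice, and at 197 CPM in its fed mouse. For genotype the smallest adjusted p was 0.311, shared by *Gsdmcl2*, *Il2rb* and *Prkch*. These tests leave few residual degrees of freedom, and a difference that misses the threshold is not shown to be absent.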

How the data were processed

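RNA from the crypts of 19 mice was ribosome-depleted and sequenced as single-end reads. Per the study's methods, the authors trimmed reads with Trimmomatic 0.39 and quantified them with RSEM on Ensembl transcripts of GRCm38. The deposited files hold expected counts per gene as the authors' estimates. The RSEM version and strand setting are not given in the sources used here. Without strand, antisense genes and their partners cannot be told apart. The TPM and FPKM columns and effective lengths were not used.

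Here the expected counts were rounded to whole numbers (55487 genes listed), filtered with edgeR's filterByExpr, scaled by TMM and fitted with edgeR 4.0.16 (R 4.3.3) quasi-likelihood, with diet-by-genotype group and file-name set as terms and all 19 mice in the fit (11 residual degrees of freedom, common dispersion 0.0188). Each set was set against the mean of the others, and p-values were adjusted over all tested genes by Benjamini-Hochberg at a threshold of 0.05. In any sentence with an adjusted p and no other test named, this is the test. Log2 fold changes come from that fit, CPM from TMM-scaled libraries, and deviations from log2 CPM with a prior count of 2. No 2 libraries held identical values (0 pairs). Totals of 9059418 to 35068669 counts set the precision, and values under about 1 CPM rest on few counts. The labels do not say whether mice of a set shared a litter, cage, day or run, so p-values measure the spread between mice.

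Named genes were taken by a rule: up to 5 members with the smallest p of the tuft, type 2, regional, fibroblast and smooth muscle lists and up to 2 of every other list, the 10 autosomal genes with the smallest p over the 5 sets, the 3 highest and lowest genes of each contrast with an average of at least 1 log2 CPM, the 3 smallest p of the other tests, and the label checks. Other list members (such as *Dclk1*, *Il17rb*, *Lgr5* and *Muc2*) were named for their role with their values known. The set rule, lists and members were chosen with earlier results of these data known. On simulated counts for set 1 (17608 genes), 69 of 100 genes changed 1.5-fold and 96 of 100 changed 2-fold were called with the right sign, and 8 unchanged genes were called. The changed genes were drawn only from genes above a minimum mean count, so these rates do not cover genes with few counts. The alternatives used limma 3.58.1, DESeq2 1.42.0, upper-quartile scaling, other filters, the title number as block, the genotype label of the mouse in doubt, and each mouse or set left out. Fits within a diet, without set 1 and on protein-coding autosomal genes were chosen after seeing the data. Gene positions are those of GENCODE on GRCm38.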

Additional observations from a re-analysis of the deposited data

Results flagged for a closer look

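Single mice that stood far from the others of their diet-by-genotype group, by the gap to the nearest mouse over the group's range, were found for 33 of 232 values tested. Chance flags about 1 in 20 groups, and the genes share mice. Many of the genes screened were named for a difference between sets, often in set 1. The number of flags and their place in set 1 follow in part from that choice, so they cannot be set against that rate. No cause was tested for any of them.

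Most belonged to set 1. In the fed NT+/+ mouse of set 1, *Trpm5* was at 118 CPM, *Dclk1* at 131, *Plcb2* at 38.5, *Pou2f3* at 23.9, *Retnlb* at 18, *Mptx1* at 54.1, *Clps* at 420, *Spink4* at 1120, *Sox9* at 107 and *Irgm1* at 87.2 CPM. The same mouse had ribosomal RNA at 11.547% of counts and an enterocyte list deviation of -0.749. In the fasted NT+/+ mouse of set 1, *Trpm5* was at 90.4 CPM, *Dclk1* at 110, *Plcb2* at 26.3, *Pou2f3* at 15.7, *Retnlb* at 1.22, *Pla2g4c* at 1.62 and *Irgm1* at 40.1 CPM. In its fasted NT-/- mouse, *Defa30* was at 8770 CPM, *Clps* at 261 and *Spink4* at 426 CPM. In that fed NT+/+ mouse, high tuft and type 2 values came with a high ribosomal share, whose part in them was not tested. The ribosomal share was 1.157% in the fed NT-/-, 0.508% in the fasted NT+/+ and 0.799% in the fasted NT-/- mouse of set 1. Their *Trpm5* values were 74.8, 90.4 and 60.2 CPM.

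In set 2, *Pla2g4c* reached 1840 CPM in the fed NT-/- mouse, which also had a macrophage list deviation of -0.442, and *Fgf15* 8.32 CPM in the fed NT+/+ mouse. Ribosomal RNA took 1.957% of counts in the fasted NT+/+ and 2.943% in the fasted NT-/- mouse of set 2, and the latter had a deviation of 0.919 for the microbiota-responsive defense list. In set 3, *Per1* was at 68.7 CPM in the fasted NT+/+ mouse, whose heat shock and immediate early list stood at 0.583, and *Bnip1* at 33.4 CPM in the fasted NT-/- mouse. In set 4, the fasted NT+/+ mouse had a colon list deviation of 0.553. In set 5, *Rab10os* was at 14.9 CPM in the fed NT-/- mouse, below the 3 other fed NT-/- mice (21.5 to 22.3 CPM).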

How the results depend on the processing

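The 2732 genes called over the 5 sets, 3413 in set 1, 194 in set 2, 471 in set 3, 6 in set 4 and 27 in set 5 stayed within 1.5 times under limma, upper-quartile scaling and other filters, except for the small counts of sets 4 and 5. DESeq2 called 4436 genes over the 5 sets, 612 in set 2, 981 in set 3, 139 in set 4, 526 in set 5, 721 between male and female sets, 764 between the male sets, 80 that depend on diet and 150 on genotype. With the title number as the replicate block in place of the file-name set, 1201 genes differed over the 5 numbers, 24 in number 2, 0 in numbers 3 and 5, 1 between male and female and 0 between the male sets. That block took a median of 41.7% of the within-group sum of squares, against 47.2% for the sets, and *Kdm5d* turned sign in number 4 (0.99). No other named result turned sign under another scaling, filter or tool, the genotype label or 1 mouse left out, in the fits that held the gene. Within 1 diet, *Myc* in set 2 stood at -0.37 in fed and 0.5 in fasted mice and *Per1* in set 1 at 0.29 and -0.61, none of them past the threshold. Placing the mouse with disagreeing labels by its genotype label gave 1763 genes over the 5 sets, 256 in set 3, 14 in set 5, 134 between male and female and 1 between the male sets.

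Without set 1, 53 genes differed among sets and 145 between male and female sets. Without set 2, 963 differed among sets. Among protein-coding autosomal genes alone, 1503 differed over the 5 sets, 1804 in set 1, 75 in set 2, 0 in set 4, 6 in set 5 and 1121 among the female sets. Fed mice alone gave 1 gene over the 5 sets and 7 in set 1, and fasted mice alone 223 and 852, with fewer mice in each fit. Set 4 gave 12 genes with no filter, 3 with at least 10 counts in every mouse and 11 with limma. Set 5 gave 17 with upper-quartile scaling, 94 with no filter and 8 with at least 10 counts, and the male sets 255 with no filter and 147 with at least 10 counts. With no filter, 214 genes depended on diet and 263 on genotype. The cause of these shifts was not tested.

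Leaving out 1 mouse at a time, the 5-set count ran from 665 to 3630, set 1 from 1070 to 4088, set 2 from 7 to 665, set 3 from 8 to 1248, set 4 from 3 to 12, set 5 from 9 to 62, male against female from 35 to 747, the female sets from 394 to 3116, the male sets from 0 to 875, diet from 0 to 3 and genotype from 0 to 9. The lowest 5-set and set 1 counts came without the fasted NT-/- mouse of set 1, and the highest without the fed NT+/+ mouse of set 3. With a single mouse left out, calls near the threshold (*Il17rb*, *Apob* and *Aqp8* in set 1, *Pla2g4c*, *Gsdmc2*, *Gsdmc3*, *Muc2*, *Srm* and *Hpdl* in set 2, *Acta2* in set 3, *Gm37033* in set 4) were lost in several of the fits. Upper-quartile scaling changed the share of calls that were higher from 53.1% to 33.7% in set 1, from 42.3% to 56% in set 2 and from 70.4% to 58.8% in set 5. Under limma it was 32.2% in set 2 and 30.4% in set 3. Genes under about 1 CPM (collagens, *Fgf15*, *Retnlb* outside sets 1 and 2 and in the fasted mice of set 2) were limited by depth.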
